A study of Homo sapiens with 8 samples.

Results

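Expression of 10 genes of the BCL2 family was followed in human neuroblastoma cells. They were chosen by symbol, as BCL2, BCL2L1 and MCL1 (anti-apoptotic), BAX and BAK1 (pro-apoptotic effectors) and BBC3, PMAIP1, BCL2L11, BID and BIK (pro-apoptotic BH3-only proteins), and every probe annotated with 1 of these 10 symbols was kept. This gave 22 of the 47322 probes on the Illumina HumanHT-12 v4 bead array, which together name 31426 symbols. RNA came from SH-SY5Y cells, labelled neuroblastic, and SH-EP2 cells, labelled epithelial-like, both derived from the SK-N-SH neuroblastoma line. Each line had been transduced with a lentiviral TRPM7 shRNA (TRPM7 shRNA cells) or with a scrambled, nonfunctional shRNA (control cells), and all transduced cells had been selected with puromycin. The 4 groups held 2 arrays each, so that every mean below is of n = 2 and the SD is that of 2 arrays. A single TRPM7 shRNA sequence was profiled, in transduced populations, and the sources do not say whether the 2 samples of a group were separate cultures. The p-values then measure the spread between these samples, which may be technical.

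The BCL2 family controls the permeability of the outer mitochondrial membrane. BAX and BAK1 oligomerise there and release cytochrome c, which starts the caspase cascade. BCL2, BCL2L1 (BCL-XL) and MCL1 bind and restrain these effectors, and the BH3-only proteins relay stress by engaging the anti-apoptotic members or, as in the case of BCL2L11 (BIM) and BID, also by activating the effectors directly. BID is cut by caspase 8 after death receptor signalling, and the truncated protein moves to mitochondria. BBC3 (PUMA), PMAIP1 (NOXA) and BAX are known p53 target genes. In neuroblastoma, high BCL2 is typical of neuroblastic cells.

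The promoter sequences of 3 members are given first, since BID was the member that differed between TRPM7 shRNA and control cells, and BCL2 and PMAIP1 were the members that differed most between the lines. RefSeq windows of 300 bases on GRCh38.p14 (250 before and 50 after an annotated start) were at hand for 8 of the 10 members, all except MCL1 and BIK. BID had 5 such windows, of which the outermost ones are shown. Capitals mark matches, on either strand, to 5 short motifs. The first is GGGCGG, known as the GC box that SP1 recognises. The next is CAGGTG, the form of the E-box that SNAI factors bind. The third is CACGTG, the form of the E-box that MYC factors bind. The others are TATAAA, the usual core of a TATA box, and the half-site TGACGT, the core of the cAMP response element. No matches to different motifs overlapped in the windows shown.
BID, upstream start, chr22:17774616-17774915, minus strand: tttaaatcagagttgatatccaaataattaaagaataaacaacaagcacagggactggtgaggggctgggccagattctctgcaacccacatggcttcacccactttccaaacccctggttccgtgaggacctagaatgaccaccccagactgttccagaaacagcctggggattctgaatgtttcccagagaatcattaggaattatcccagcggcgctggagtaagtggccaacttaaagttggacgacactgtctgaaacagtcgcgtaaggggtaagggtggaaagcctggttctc
BID, downstream start, chr22:17773934-17774233, minus strand: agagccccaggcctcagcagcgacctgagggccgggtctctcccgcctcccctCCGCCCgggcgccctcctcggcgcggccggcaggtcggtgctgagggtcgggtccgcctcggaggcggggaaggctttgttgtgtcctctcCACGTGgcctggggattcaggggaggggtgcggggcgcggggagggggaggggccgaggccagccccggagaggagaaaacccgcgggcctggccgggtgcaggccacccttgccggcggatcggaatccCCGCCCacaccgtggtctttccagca
BCL2, chr18:63319720-63320019, minus strand: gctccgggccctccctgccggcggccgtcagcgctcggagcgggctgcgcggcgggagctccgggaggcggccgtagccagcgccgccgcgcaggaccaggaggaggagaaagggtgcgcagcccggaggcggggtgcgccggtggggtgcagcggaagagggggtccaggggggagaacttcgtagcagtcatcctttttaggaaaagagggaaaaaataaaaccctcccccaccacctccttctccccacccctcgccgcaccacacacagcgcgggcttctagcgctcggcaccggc
PMAIP1, chr18:59899746-59900045, plus strand: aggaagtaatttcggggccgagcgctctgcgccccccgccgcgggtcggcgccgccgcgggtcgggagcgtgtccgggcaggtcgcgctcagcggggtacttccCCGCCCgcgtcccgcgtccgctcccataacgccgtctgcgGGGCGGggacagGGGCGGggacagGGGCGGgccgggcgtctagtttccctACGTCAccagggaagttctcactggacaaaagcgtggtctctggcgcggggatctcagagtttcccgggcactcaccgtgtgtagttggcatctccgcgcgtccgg
The upstream BID window had 48.7% GC, below the median of 58.7% over all 35116 windows, and held none of the 5 motifs. The downstream BID window had 74.7% GC and held 2 GC boxes and 1 E-box of the MYC form. PMAIP1 held 4 GC boxes, at -146, -106, -94 and -82 from the start, and 1 half-site at -56. BCL2, with 70.7% GC, held no match. Of all windows, 45.0% held a GC box, 20.6% the SNAI form and 7.26% the MYC form of the E-box, 11.5% a TATA box and 7.98% the half-site. A match is a description of the sequence and no evidence of binding.

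Of the 22 probes, 15 were detected (detection p under 0.05) on all 8 arrays, 3 on some and 4 on none. The only BIK probe was among those 4, with log2 signals between 1.33 and 2.00 at background level, so that BIK, an endoplasmic reticulum BH3-only protein, is not described further. The other 9 members each had at least 1 probe detected on every array. Levels below are log2 normalized signals. Because probes differ in brightness, the levels of different probes were not compared with each other. Where a gene had several probes, the brightest is given first.

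The arrays had median signals of 104.7 to 119.9 and 40.8% to 44.2% of their probes were detected. The single TRPM7 probe was detected on none of the 8 arrays (detection p from 0.0753 to 0.201), so that the knockdown itself cannot be read from them. The study reports stable TRPM7 knockdown in both lines and measured TRPM7 RNA by quantitative RT-PCR. How far TRPM7 fell in each line is not known here. Control SH-EP2 cells were lower than control SH-SY5Y cells for 7 of 8 noradrenergic markers, with PHOX2A and DBH among those undetected in SH-EP2 cells, and TH undetected in both lines. Of 8 mesenchymal markers, 7 were higher in SH-EP2 cells and VIM was slightly lower. Of all probes 12.2% passed as higher and 14% as lower in SH-EP2 control cells. FN1, PRRX1 and WWTR1 were undetected in SH-SY5Y cells.

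After TRPM7 shRNA, BID was the only one of the 10 members that changed past the adjusted threshold in either line. Among 17 alternative settings in SH-SY5Y cells, BAX passed under 5, BCL2 under 2 and BCL2L1 under 1. For BAX, 1 of these settings was a crossed replicate block added after seeing the data. Both bright BID probes fell by close to 1 on the log2 scale in SH-SY5Y cells and neither changed in SH-EP2 cells by this threshold. BCL2 and BCL2L1 had lower and BAX and MCL1 higher fitted values in SH-SY5Y TRPM7 shRNA cells, none of which passed. The lines themselves differed more than the shRNA groups did, with BCL2 far lower and PMAIP1, BAK1, MCL1 and BCL2L1 higher in SH-EP2 cells.

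**Figure D1:**
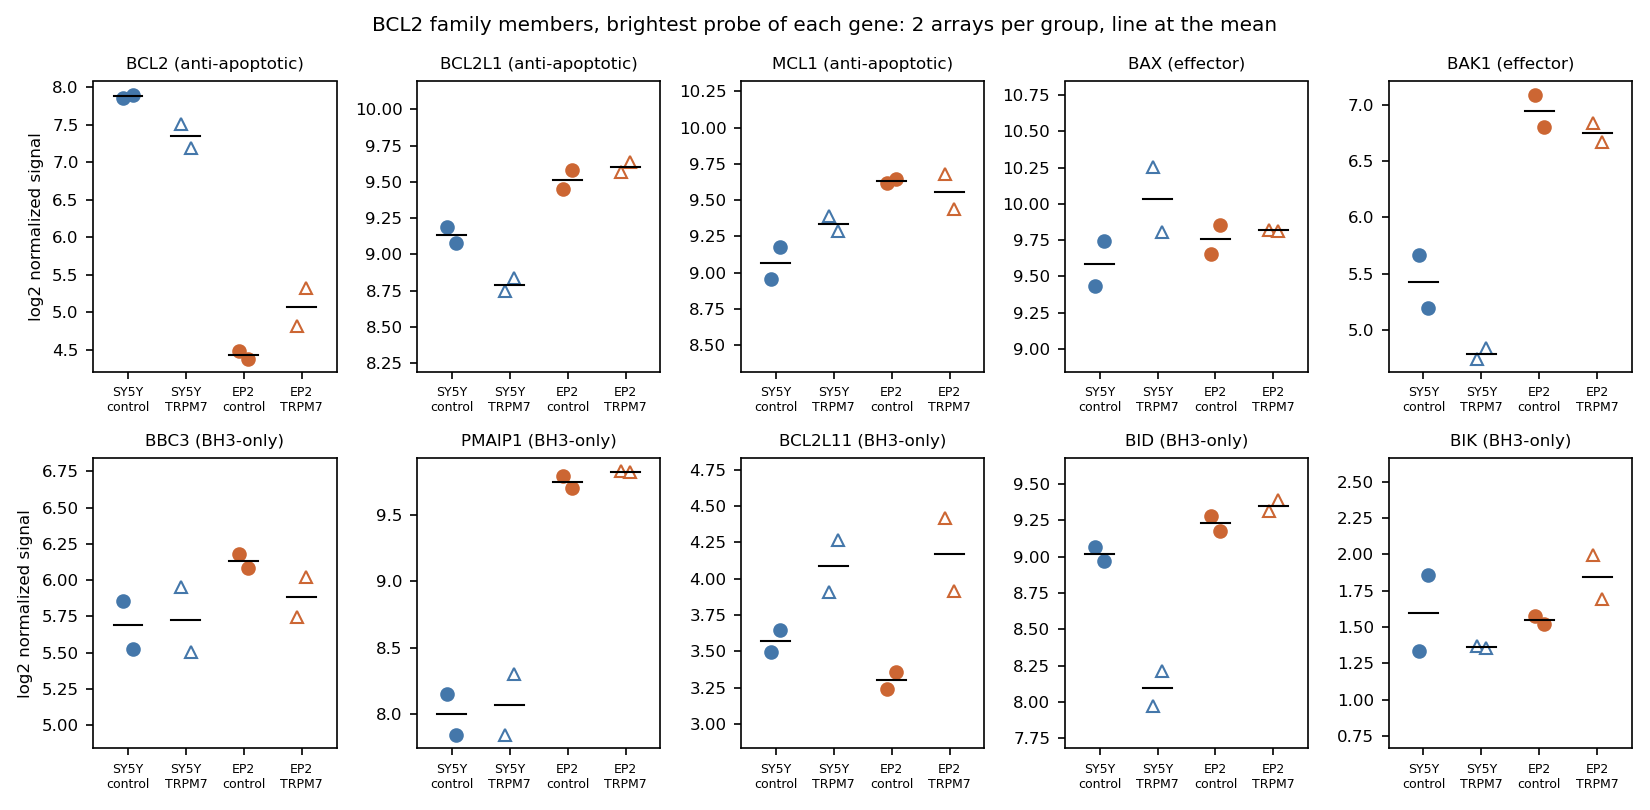
Log2 normalized signal of the brightest probe of each of the 10 members on every array. Filled circles are control arrays, open triangles TRPM7 shRNA arrays, blue SH-SY5Y and orange SH-EP2, with a line at the mean of 2 arrays and an axis of its own in each panel. In the BID panel both SH-SY5Y TRPM7 shRNA arrays (7.97 and 8.22) lie below the other 6 arrays, and in the BCL2 panel all 4 SH-EP2 arrays lie below all 4 SH-SY5Y arrays.

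BCL2, the founding survival protein of the family, was measured by 2 probes that detected it on all arrays. Probe ILMN_2246956 read 7.86 and 7.90 in SH-SY5Y control cells and 7.51 and 7.19 in SH-SY5Y TRPM7 shRNA cells. In SH-EP2 cells it read 4.49 and 4.38 in control cells and 4.82 and 5.32 in TRPM7 shRNA cells. The groups thus did not overlap in either line, and lay apart in opposite directions. The fitted change was -0.53 (SE 0.21, adjusted p = 0.306) in SH-SY5Y cells and 0.64 (SE 0.21, adjusted p = 0.137) in SH-EP2 cells. Neither passed, and the difference between these effects was 1.16 (95% interval 0.54 to 1.79, adjusted p = 0.0596), which passed under 3 of 15 alternatives. The second probe, ILMN_1801119, had wider spread, with 7.16 and 7.30 against 7.05 and 6.50 in SH-SY5Y cells and 4.06 and 3.59 against 4.59 and 3.30 in SH-EP2 cells. Its difference of effects was 0.57 (95% interval -0.41 to 1.55). Both further BCL2 probes were at background, detected on 4 arrays (ILMN_2363250) and on none (ILMN_1701120).

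Between control cells of the lines, BCL2 gave the largest difference of the family. The mean of ILMN_2246956 was 7.88 ± 0.03 in SH-SY5Y and 4.43 ± 0.07 in SH-EP2 control cells, a 10.9-fold difference (log2 -3.44, SE 0.21, adjusted p = 5.19e-11). ILMN_1801119 gave 10.6-fold (adjusted p = 6.07e-08). BCL2 signal in SH-EP2 cells was close to the background, although detected on each array, and a fold at this level depends on the background correction, with log2 values from -3.52 to -1.37 over the alternatives for ILMN_2246956.

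BCL2L1, which encodes the survival protein BCL-XL, read 9.19 and 9.08 in SH-SY5Y control and 8.75 and 8.84 in SH-SY5Y TRPM7 shRNA cells (ILMN_1654118). The groups did not overlap, and the fitted change of -0.34 (SE 0.10) missed the threshold (adjusted p = 0.106). In SH-EP2 cells the values were 9.45 and 9.58 in control and 9.57 and 9.64 in TRPM7 shRNA cells, with overlap. Control SH-EP2 cells were 1.30-fold higher than control SH-SY5Y cells (adjusted p = 0.00713), a call lost under 3 of 14 alternatives, the fit without an intensity trend and those without SH-EP2 or SH-SY5Y control replicate 2. The dimmer probe ILMN_1742410 was also higher in SH-EP2 control cells (log2 1.25, SE 0.35, adjusted p = 0.00891), with log2 values from 0.21 to 1.56 over the alternatives and the call lost without either control replicate 1, and changed in neither line after TRPM7 shRNA by the adjusted threshold.

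MCL1, a survival protein with a short half-life, read 8.96 and 9.18 in SH-SY5Y control and 9.39 and 9.29 in TRPM7 shRNA cells (ILMN_1803988). This gave 0.27 (SE 0.11, adjusted p = 0.320). The second probe did not have the same sign, since ILMN_1756806 read 6.45 and 6.60 against 6.34 and 6.55 (log2 -0.08, adjusted p = 0.930). In SH-EP2 cells both probes had small negative values, -0.07 (adjusted p = 0.876) and -0.21 (adjusted p = 0.682). Between control cells, MCL1 was higher in SH-EP2 by 1.48-fold and 2.15-fold for the respective probes (adjusted p = 0.000382 and 1.28e-05). Over the alternatives the second of these ranged from 0.60 to 1.19 on the log2 scale.

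BAX, an effector that moves from the cytosol to mitochondria, read 9.43 and 9.75 in SH-SY5Y control cells and 10.25 and 9.81 in TRPM7 shRNA cells (ILMN_2321064). The groups lay apart by the small gap between 9.75 and 9.81, and the fitted change was 0.44 (SE 0.13, adjusted p = 0.0980). In SH-EP2 cells the arrays read 9.66 and 9.85 in control and 9.82 on both TRPM7 shRNA arrays, and the lines did not differ in control cells (log2 0.17, 95% interval -0.10 to 0.44) by this test. The dimmer BAX probe ILMN_1683300 ranged from 3.66 to 4.59 over the 8 arrays and the groups of each line overlapped. The remaining BAX probe, ILMN_2258383, was detected on none.

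BAK1, the effector that resides in the outer mitochondrial membrane, had 1 probe. It read 5.67 and 5.19 in SH-SY5Y control and 4.74 and 4.83 in TRPM7 shRNA cells, and 7.09 and 6.80 against 6.84 and 6.67 in SH-EP2 cells. The fitted changes were -0.64 (SE 0.22, adjusted p = 0.188) and -0.19 (SE 0.22, adjusted p = 0.818). The line difference in control cells was 2.86-fold in favour of SH-EP2 (log2 1.52, SE 0.22, adjusted p = 1.20e-05), with log2 values from 0.60 to 1.76 over the alternatives, and no SH-SY5Y array reached the lowest SH-EP2 array.

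BID, the BH3-only protein that links death receptors to mitochondria, read 9.07 and 8.97 in SH-SY5Y control and 7.97 and 8.22 in SH-SY5Y TRPM7 shRNA cells (ILMN_1763386). In SH-EP2 cells the same probe read 9.28 and 9.18 in control and 9.32 and 9.39 in TRPM7 shRNA cells. The SH-SY5Y TRPM7 shRNA arrays were thus the lowest of the 8, at a distance from the next array larger than the spread within any group. The means were 9.02 ± 0.07 and 8.09 ± 0.17, a 1.90-fold decrease (log2 -0.93, SE 0.11, 95% interval -1.16 to -0.69, adjusted p = 3.94e-05). Among the 14577 probes detected on all 8 arrays, 210 had a fitted change in SH-SY5Y cells as low as this or lower. In whole-culture RNA a smaller share of cells with BID and less BID RNA per cell cannot be told apart.

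A second BID probe, ILMN_2372413, gave 7.17 and 7.40 in SH-SY5Y control and 6.27 and 6.44 in TRPM7 shRNA cells. Its mean fell from 7.28 ± 0.16 to 6.35 ± 0.12 (log2 -0.93, SE 0.15, adjusted p = 0.00119), again 1.90-fold. In SH-EP2 cells its arrays overlapped, at 7.66 and 7.75 in control and 7.68 and 7.84 in TRPM7 shRNA cells. The third probe, ILMN_2259495, was detected on 5 of the 8 arrays, with values from 2.71 to 4.03, and its change was -0.60 (SE 0.52, adjusted p = 0.754). The bright BID probes lost the call in SH-SY5Y cells under 1 of 17 alternatives each, the fit without an intensity trend (adjusted p = 0.164 and 0.172).

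The knockdown effect on BID differed between the lines. In SH-EP2 cells the changes were 0.12 (SE 0.11, 95% interval -0.12 to 0.36) and 0.06 (SE 0.15, 95% interval -0.26 to 0.37). The SH-EP2 effect minus the SH-SY5Y effect was 1.05 (SE 0.16, adjusted p = 0.000789) for ILMN_1763386 and 0.98 (SE 0.22, adjusted p = 0.0212) for ILMN_2372413. The second of these fell short of the threshold in 8 of 15 alternatives, 6 of which left out 1 array, and the first in 1 of 15. In control cells BID differed little between the lines, with log2 0.21 (adjusted p = 0.211) and 0.43 (adjusted p = 0.0452), the latter lost in 7 of 14 alternatives.

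The probes most like ILMN_1763386 over the 8 arrays, among 22453 probes of other genes detected on at least 2 arrays, were those of LIX1L (Pearson r = 0.995), GPC6 (r = 0.987) and FAM69A (r = 0.979). They were picked for this likeness, which is a description over 8 arrays that fall into 4 groups. Their changes in SH-SY5Y cells were -0.75, -0.86 and -0.97, and in SH-EP2 cells 0.01, 0.01 and 0.09.

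PMAIP1, which mainly binds MCL1, read 8.15 and 7.84 in SH-SY5Y control and 7.84 and 8.30 in TRPM7 shRNA cells (ILMN_2098446), so that the groups overlapped fully. In SH-EP2 cells it read 9.79 and 9.70 in control and 9.83 and 9.82 in TRPM7 shRNA cells. The fitted changes were 0.07 and 0.08 (95% intervals -0.22 to 0.36 and -0.21 to 0.37). Between control cells it was 3.37-fold higher in SH-EP2 (log2 1.75, SE 0.14, adjusted p = 2.42e-09), with a gap between the lowest SH-EP2 and the highest SH-SY5Y array. The dimmer ILMN_1689525 had a line difference of 0.65 that missed the threshold (adjusted p = 0.195).

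BCL2L11, which can bind all anti-apoptotic members, was close to the background. ILMN_2359627 read 3.50 and 3.65 in SH-SY5Y control and 3.91 and 4.27 in TRPM7 shRNA cells. In SH-EP2 cells it read 3.24 and 3.36 in control and 4.42 and 3.91 in TRPM7 shRNA cells. Control and TRPM7 shRNA arrays did not overlap in either line, and the fitted values of 0.52 (SE 0.41, adjusted p = 0.720) and 0.87 (SE 0.41, adjusted p = 0.382) did not pass. The other BCL2L11 probes were detected on 1 array (ILMN_1774997) and on none (ILMN_1766541).

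BBC3, a BH3-only protein that binds every anti-apoptotic member, gave 5.85 and 5.53 in SH-SY5Y control and 5.95 and 5.50 in TRPM7 shRNA cells. In SH-EP2 cells it gave 6.18 and 6.08 in control and 5.74 and 6.02 in TRPM7 shRNA cells. Neither change passed (log2 0.04 and -0.25, adjusted p = 0.977 and 0.753), nor did the line difference of 0.44 (adjusted p = 0.193).

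**Figure D2:**
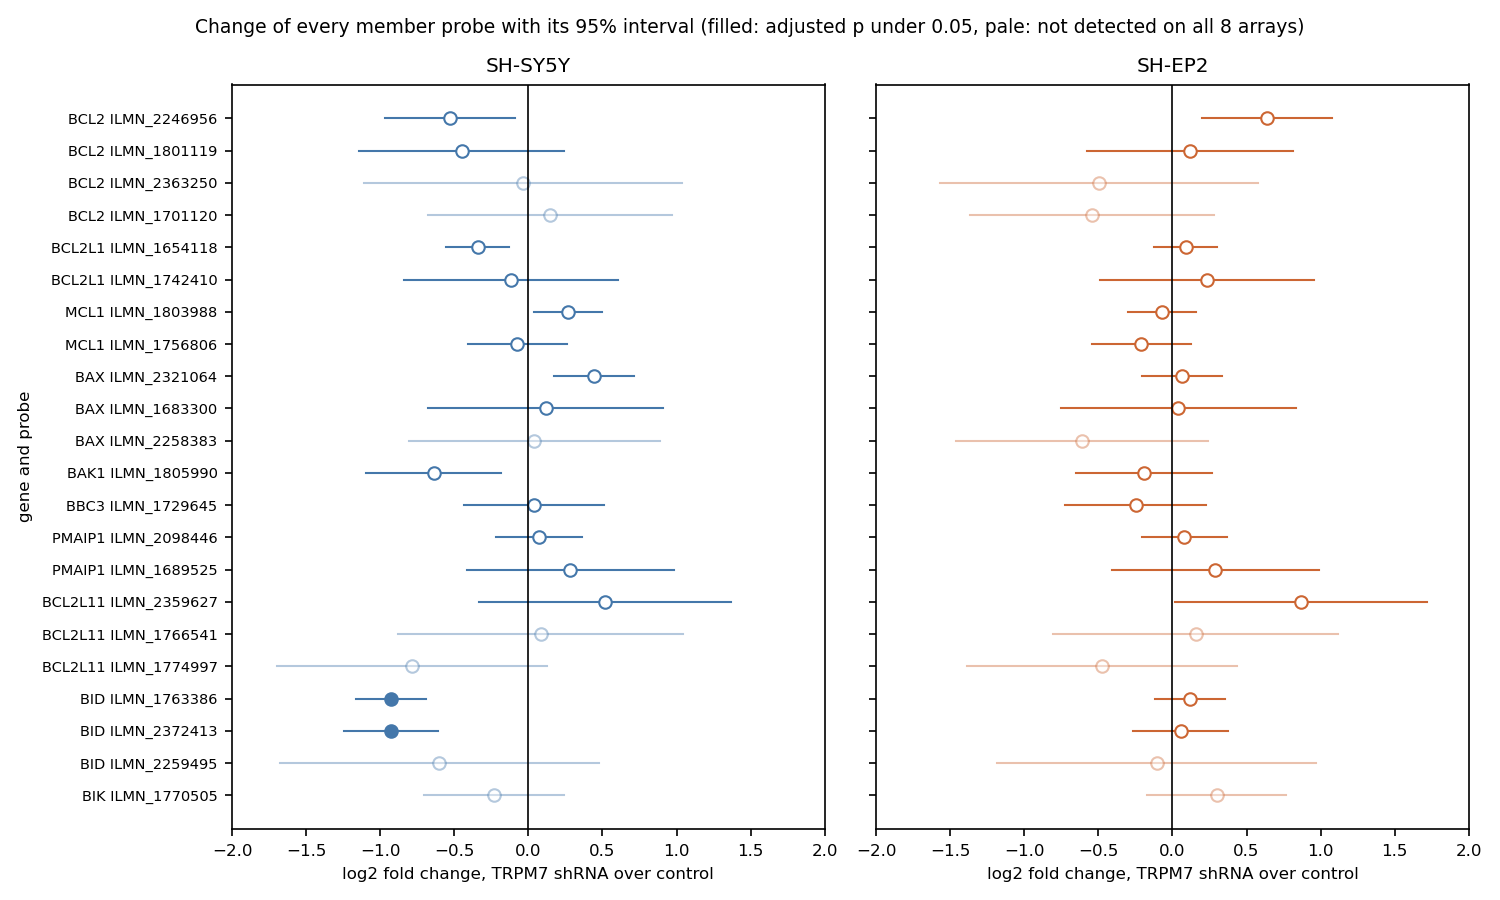
Log2 fold change (TRPM7 shRNA over control) of each of the 22 member probes with its 95% interval, in SH-SY5Y cells (left) and SH-EP2 cells (right). Filled points passed an adjusted p under 0.05 and pale points are probes not detected on all 8 arrays. The 2 filled points are the bright BID probes in SH-SY5Y cells.

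Counted over probes in SH-SY5Y cells, 2 of 22 member probes passed the adjusted threshold, both lower, where 2.12% of all probes passed and 1.3% passed as lower. Among the 15 member probes detected on all arrays it was the same 2, against 5.65% of all such probes. At an unadjusted p under 0.05 there were 7, all of them among the 15, where the share was 11.4% of all probes and 22.1% of those detected throughout. Control and TRPM7 shRNA arrays did not overlap for 11 of the 22 (39.1% of all probes) and for 9 of the 15 (48.1%). The median change was -0.06 over the 22 probes and 0.00 over all probes. By role, the medians were -0.10 for the 8 anti-apoptotic probes, 0.08 for the 4 effector probes and -0.10 for the 10 BH3-only probes. Each role includes probes not detected on all arrays and several probes of a gene, so that these medians do not describe a change of the role.

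In SH-EP2 cells, 0 of 22 member probes passed with limma, where 3.03% of all probes and 7.82% of those detected throughout did. At an unadjusted p under 0.05 there were 2, BCL2 ILMN_2246956 and BCL2L11 ILMN_2359627, with 12.6% of all probes and 25.4% of those detected throughout below this value. Arrays did not overlap for 10 of 22 member probes (42.9% of all probes) and for 6 of the 15 (58%). The member median was 0.06, that of all probes 0.01.

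**Figure D3:**
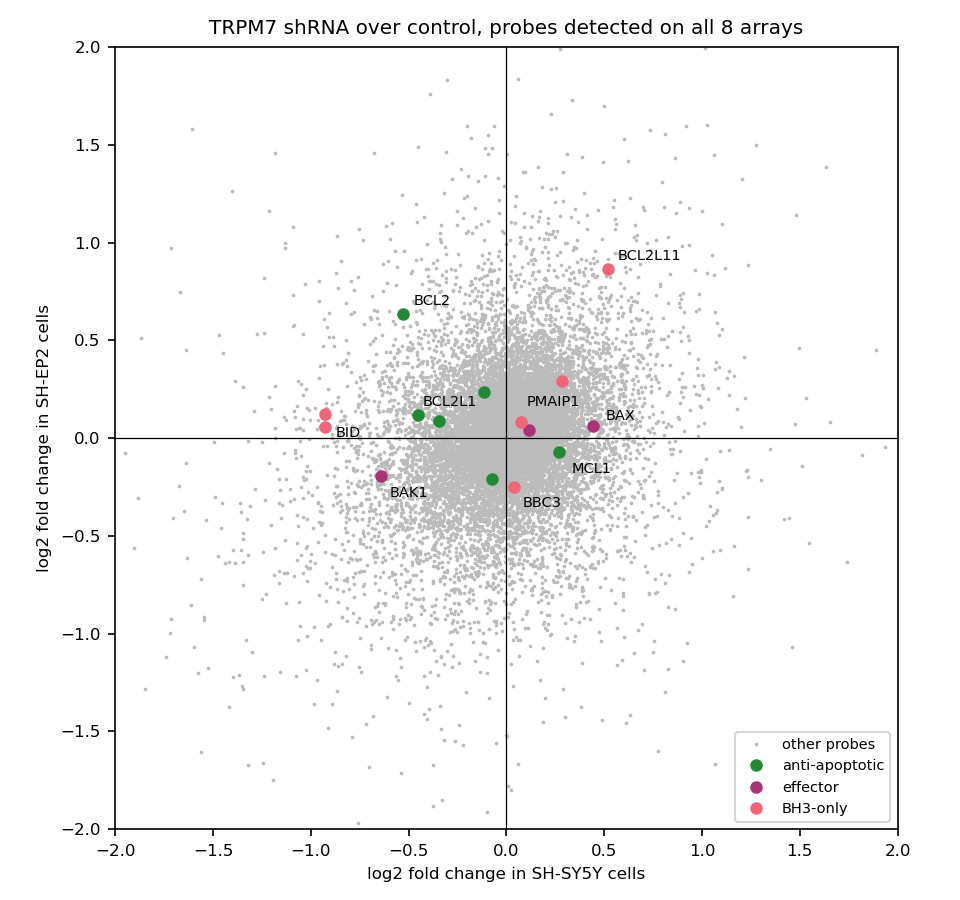
Log2 fold change in SH-SY5Y cells (x axis) against that in SH-EP2 cells (y axis) for the 14577 probes detected on all 8 arrays, with the 15 member probes in colour by role and the brightest probe of a gene labelled. Grey points are all other probes, 31 probes lie outside the plotted range of 2 on each side of 0, and the BID probes stand at -0.93 on the x axis and close to 0 on the y axis.

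In the test of the difference of the effects, 2 of 22 member probes passed, both BID and both with the higher value in SH-EP2 cells. Of all probes 1.42% did, 0.799% with this sign, and of those detected throughout 3.48% did. Unadjusted, 5 were below 0.05, with 10.3% of all probes and 18.6% of those detected throughout. These were the 2 BID probes, BCL2 ILMN_2246956, BCL2L1 ILMN_1654118 (0.43, adjusted p = 0.213) and MCL1 ILMN_1803988 (-0.34, adjusted p = 0.448).

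Between the control cells, 9 of 22 member probes passed, 7 higher in SH-EP2 (BCL2L1 and MCL1 with 2 probes each, BAK1, PMAIP1 and BID with 1 each) and 2 lower (both BCL2). Of all probes 26.2% passed, 12.2% as higher and 14% as lower in SH-EP2, and among probes detected throughout 60.1% passed, as did 9 of the 15 member probes. The share of the family is thus at the level of all detected probes. Arrays did not overlap for 14 of 22 member probes (55.3% of all probes) and for 12 of the 15 (81.7%).

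The balance of the family was described per array as the mean log2 signal of the 7 pro-apoptotic members minus that of the 3 anti-apoptotic members, with the brightest probe of each gene and relative to the control arrays of the same line. No test was made of this score. In SH-SY5Y cells, the anti-apoptotic mean stood at -0.15 and -0.25 on the TRPM7 shRNA arrays and the pro-apoptotic mean at -0.12 and -0.09. Fitted changes behind the anti-apoptotic mean were -0.53 for BCL2, -0.34 for BCL2L1 and 0.27 for MCL1. Those behind the pro-apoptotic mean were -0.93 for BID, -0.64 for BAK1 and -0.23 for BIK. BBC3 gave 0.04, PMAIP1 0.07, BAX 0.44 and BCL2L11 0.52. The difference of both means was 0.03 and 0.17, with control arrays at 0.04 and -0.04, so that the groups overlapped.

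In SH-EP2 cells both means were above the control arrays, the anti-apoptotic one at 0.16 and 0.27 and the pro-apoptotic one at 0.19 and 0.10. Fitted changes behind the anti-apoptotic mean were 0.64 for BCL2, close to background there, 0.09 for BCL2L1 and -0.07 for MCL1. Those behind the pro-apoptotic mean were 0.87 for BCL2L11 and 0.30 for BIK, at or near background, and 0.12 for BID. PMAIP1 gave 0.08, BAX 0.06, BAK1 -0.19 and BBC3 -0.25. The difference of both means was 0.03 and -0.18, against 0.03 and -0.03 in control cells. The balance thus stood at 0.10 in SH-SY5Y and -0.08 in SH-EP2 TRPM7 shRNA cells. Both means lay outside the span of the control arrays of their line, with 1 of the 2 TRPM7 shRNA arrays inside it. Averaged over all probes of a gene, these values became -0.07 and 0.03, so that even their signs depend on the probes taken. Without the members undetected on all arrays (BIK), they were 0.12 and -0.10.

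**Figure D4:**
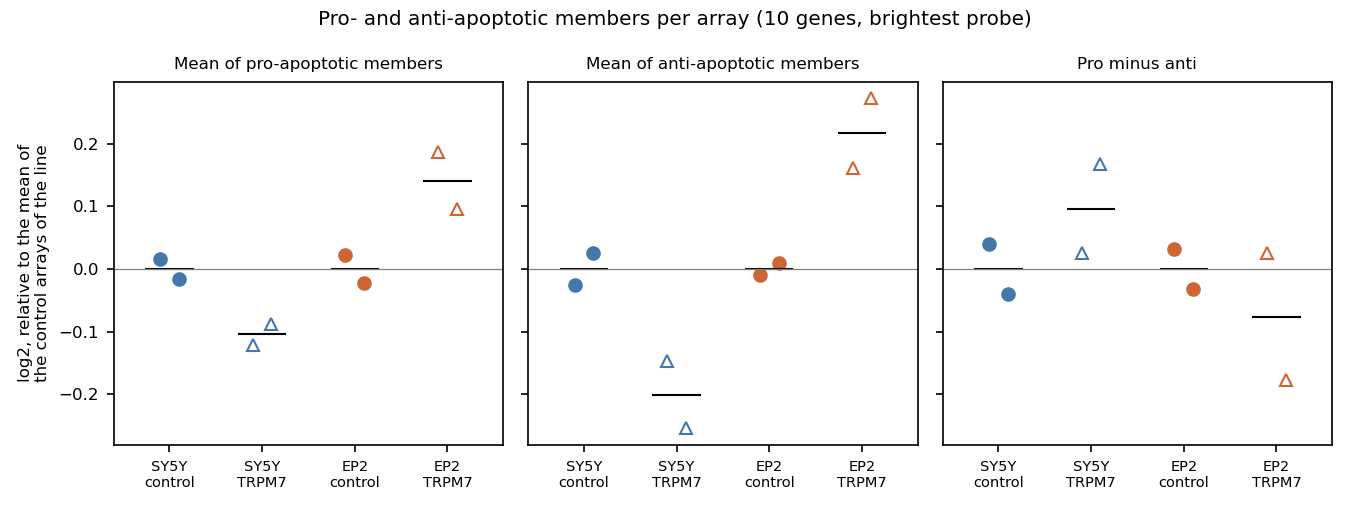
Mean log2 signal of the 7 pro-apoptotic members (left), of the 3 anti-apoptotic members (middle) and their difference (right) on each array, relative to the mean of the control arrays of the line. Filled circles are control and open triangles TRPM7 shRNA arrays, with a line at the mean. Both means lie below the control arrays in SH-SY5Y and above them in SH-EP2 TRPM7 shRNA cells, while the difference overlaps with control in both lines. The members behind each mean had fitted changes of both signs.

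Genes around the family were counted in lists of the pathway, each gene by its brightest probe. For these counts and those of the marker lists below, 2.12% of all probes passed in SH-SY5Y and 3.03% in SH-EP2 cells. Of probes detected on all 8 arrays, 5.65% and 7.82% passed in the respective lines. Of 13 other BCL2 family genes, 1 rose and 0 fell in SH-SY5Y cells, and 0 rose and 1 fell in SH-EP2 cells. The former was HRK (harakiri), a BH3-only gene of neurons, which read 6.41 and 6.47 in SH-SY5Y control and 7.92 and 8.19 in TRPM7 shRNA cells. It rose by 1.61 (SE 0.35, adjusted p = 0.0167), a call lost when any of the 4 SH-SY5Y arrays was left out, and it was undetected in SH-EP2 cells. The latter was BNIP3L (NIX), a mitophagy receptor, which fell from 9.98 and 10.00 to 9.26 and 9.27 in SH-EP2 cells (log2 -0.72, adjusted p = 0.000117). Its value in SH-SY5Y cells was -0.34 (adjusted p = 0.0848). The dimmer BNIP3L probe ILMN_2045419 gave -0.21 in SH-EP2 cells (95% interval -0.57 to 0.16, adjusted p = 0.727) and -0.24 in SH-SY5Y cells (adjusted p = 0.682).

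Of 15 caspase and apoptosome genes, 2 rose and 1 fell in SH-SY5Y cells. AIFM1, a mitochondrial flavoprotein that can enter the nucleus in cell death, rose in both lines (log2 0.46 with adjusted p = 0.00733 in SH-SY5Y, 0.44 with adjusted p = 0.00826 in SH-EP2). The call was lost in SH-SY5Y cells under 3 of 17 alternatives, and in SH-EP2 cells under 5 of 16, among them leaving out any of the 4 SH-EP2 arrays. Its other 3 probes did not pass and differed in sign, with 0.25, 0.30 and -0.25 in SH-SY5Y cells and -0.03, 0.40 and 0.50 in SH-EP2 cells. The initiator caspase CASP2 fell by 0.44 in SH-SY5Y cells (adjusted p = 0.00304). The call was lost under 2 of 17 alternatives, among them median scaling (-0.31, adjusted p = 0.131). VDAC1, the channel of the outer mitochondrial membrane, rose there by 0.29 (adjusted p = 0.0296), a call that held in 6 of 17 alternatives. AIFM1 was the 1 gene of this list that passed in SH-EP2 cells.

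Of 7 inhibitors of apoptosis, BIRC5 (survivin), which also serves in mitosis, fell by 0.37 in SH-SY5Y cells (adjusted p = 0.0316, held in 5 of 17 alternatives) and none passed in SH-EP2 cells. Of 12 death receptor and adaptor genes, which act upstream of BID, 0 passed in either line and 8 were higher in SH-EP2 than in SH-SY5Y control cells. Between the control cells 26.2% of all probes passed, 12.2% as higher in SH-EP2, and 60.1% of those detected throughout passed. In SH-SY5Y control cells 6 of the 12 were detected on both arrays and 5 on none, and in SH-EP2 control cells 9 and 3. A fall of an undetected gene could not be seen. CASP8, of the caspase list, was also undetected in both SH-SY5Y groups. Of 4 genes of MCL1 turnover, the ubiquitin ligase subunit FBXW7 rose by 0.58 in SH-SY5Y cells (adjusted p = 0.0339, held in 9 of 17 alternatives).

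Among 13 transcription factors and regulators of members, 0 rose and 2 fell in SH-SY5Y cells, and 2 rose and 2 fell in SH-EP2 cells. FOXO3, an activator of BCL2L11 and BBC3, read 10.72 and 10.75 in SH-SY5Y control and 10.21 and 10.24 in TRPM7 shRNA cells (log2 -0.51, adjusted p = 0.00917). TRIB3, a stress-induced pseudokinase, fell in both lines (log2 -0.49 with adjusted p = 0.0171, and -0.73 with adjusted p = 0.000402). In SH-SY5Y cells, FOXO3 lost the call under 4 of 17 alternatives and TRIB3 under 5, among them median scaling (adjusted p = 0.101 and 0.271). In SH-EP2 cells, TP63, a p53 relative, rose from 9.04 and 9.03 to 10.43 and 10.58 (log2 1.47, adjusted p = 0.00228), MYC rose by 0.49 (adjusted p = 0.0438, held in 4 of 16 alternatives) and the stress factor ATF4 fell by 0.36 (adjusted p = 0.00729). The TP63 call was lost under 3 of 16 alternatives and the ATF4 call under 5 of 16. The effect differed between the lines for 4 of the 13, TP63, FOXO3, MYC and E2F1, all with the higher value in SH-EP2 cells. Of all probes 1.42% passed this test, 0.799% with this sign.

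Of 10 p53 targets outside the family, 3 rose and 0 fell in SH-SY5Y cells and 6 rose and 0 fell in SH-EP2 cells. Of all probes 2.12% and 3.03% passed in the respective lines, and of those detected on all 8 arrays 5.65% and 7.82%. The cell cycle inhibitor CDKN1A (p21) read 11.05 and 11.18 against 11.66 and 11.45 in SH-SY5Y cells and 12.59 and 12.54 against 13.08 and 13.09 in SH-EP2 cells. It rose by 0.44 (adjusted p = 0.00232) and 0.52 (adjusted p = 0.000351). The stress sensor SESN1 rose by 0.73 and 0.96 (adjusted p = 0.0118 and 0.000793) and the AKT antagonist PHLDA3 by 0.71 and 0.54 (adjusted p = 0.00539 and 0.0349). GDF15, a secreted stress factor (0.65, adjusted p = 0.00537), the antiproliferative BTG2 (1.24, adjusted p = 0.00321) and the oxidoreductase TP53I3 (0.58, adjusted p = 0.00546) passed in SH-EP2 cells alone, and the difference between the lines passed for BTG2 and TP53I3 and not for GDF15 (adjusted p = 0.113). In SH-EP2 cells the calls of PHLDA3 (lost under 7 of 16 alternatives) and GDF15 (5 of 16) were lost when any SH-EP2 array was left out, and those of BTG2 and TP53I3 under 3 of 16 each. In SH-SY5Y cells PHLDA3 lost its call under 4 of 17, SESN1 under 3 and CDKN1A under 2. The members named above as known p53 target genes, BBC3, PMAIP1 and BAX, passed in neither line. The other members were not sorted by this trait.

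**Figure D5:**
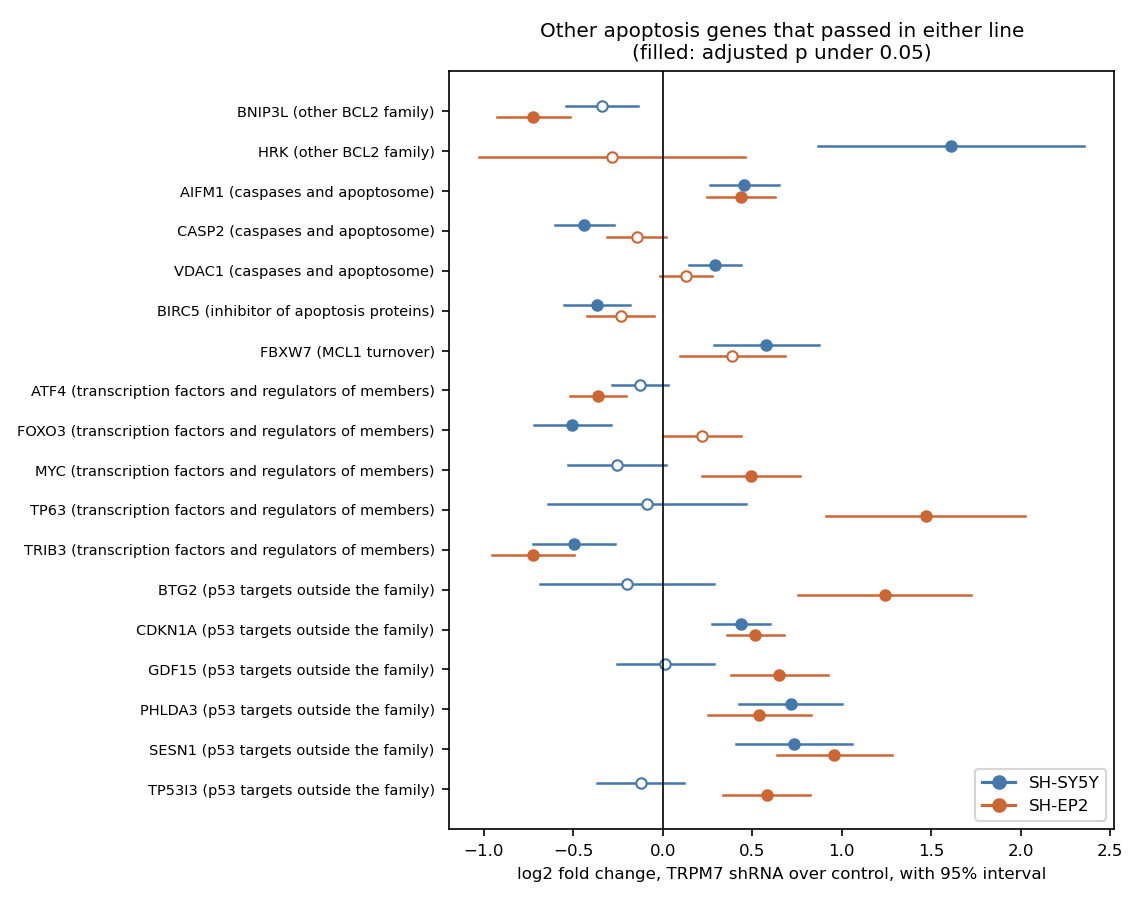
Log2 fold change (TRPM7 shRNA over control) with its 95% interval for the 18 listed pathway genes whose brightest probe passed an adjusted p under 0.05 in SH-SY5Y (blue) or SH-EP2 (orange) cells, filled where it passed. CDKN1A, SESN1, PHLDA3, AIFM1 and TRIB3 are filled in both lines.

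Some markers of cell state moved with these results. In SH-SY5Y TRPM7 shRNA cells, 1 of 8 noradrenergic (DBH), 1 of 8 mesenchymal (VIM), 1 of 8 interferon-stimulated (IFI44) and 1 of 7 proliferation genes (MCM2) were lower and none of them was higher. DBH, the enzyme that makes noradrenaline, read 12.53 and 12.70 in control and 11.42 on both TRPM7 shRNA arrays (log2 -1.20, adjusted p = 0.000629), a larger fall than that of BID. The IFI44 call (log2 -0.61, adjusted p = 0.0422) held in 3 of 17 alternatives, that of VIM in 10 and that of MCM2 in 13. The summed linear signal of the noradrenergic list ranged from 16518 to 17280 in control and from 11941 to 12359 in TRPM7 shRNA cells, while the median log2 signal of the list was 10.46 and 10.51, and DBH was the only gene of the list that passed. In SH-EP2 TRPM7 shRNA cells, 2 mesenchymal genes (CD44 and TGFBR2) and IFI44 were higher, and COL1A1 and GATA2 lower. IFI44 rose there by 0.91 (adjusted p = 0.00126) and CD44 by 0.77 (adjusted p = 0.0208). Of 16 alternatives, IFI44 held in 15, COL1A1 in 12, CD44 and TGFBR2 in 10 each and GATA2 in 9. Like that of BID, the effect on VIM (0.43, adjusted p = 0.0218) and IFI44 (1.51, adjusted p = 0.000414) differed between the lines, with the higher value in SH-EP2 cells. The difference for DBH (1.19, adjusted p = 0.0215) passed too. DBH was undetected in SH-EP2 cells, so that this difference rests on the fall in SH-SY5Y cells alone. The part of these markers in the values of BID and of the other genes was not tested.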

How the data were processed

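Total RNA of the 8 samples was hybridised to Illumina HumanHT-12 v4 arrays. The authors extracted the bead signals in GenomeStudio 2011.1 and deposited linear intensities, not normalized between arrays, with a detection p-value per probe. The study's later Robust-Multi-Array normalization was rebuilt here as RMA background correction, quantiles shared by the 8 arrays, and log2 values. Array backgrounds lay at 98.3 to 111.1 (SD 6.71 to 8.05), signals near them say little about expression, and 2 arrays a group limit the precision. The 47322 probes, 3270 of them without a symbol, entered a limma model of 4 groups (eBayes with an intensity trend, two-sided) without a filter. P-values were adjusted by Benjamini-Hochberg across all probes, with a threshold of 0.05. R 4.3.3 was used with limma 3.58.1. The model fit alone was tested on simulated log2 values, and the background correction and normalization were not. The test of the difference and those within the lines use the same arrays and are not independent.

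Genes took the symbols of the array. All member probes are described. A listed gene was represented by its brightest probe and named where that probe passed in either line or in the difference. Members and lists were chosen with earlier results of these data known. The alternatives changed the background step (neqc with offset 16, normexp with offset 50, or none, with a floor of 1), replaced quantiles by median scaling, kept probes detected on 2 or more arrays, removed the trend, fitted each line alone, added a replicate block, averaged the probes of a gene or kept detected members in the balance, and left out each array. The value of 1 marker gene is not reported here.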

Additional observations from a re-analysis of the deposited data

Results flagged for a closer look

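The TRPM7 shRNA effect differed between the lines for 11 probes, counted over the member probes and the brightest probe of each gene of the pathway and marker lists, by the test of the difference itself (SH-EP2 effect minus SH-SY5Y effect, limma, adjusted over all probes). Of all probes 1.42% passed this test, and of those detected on all 8 arrays 3.48% did. All 11 differences were positive, where 56.4% of all probes that passed were positive, and 37.1% with median scaling. The members and lists were chosen with earlier results of these data known, and the count of signs was not tested. For BID the differences were 1.05 (SE 0.16, adjusted p = 0.000789) and 0.98 (SE 0.22, adjusted p = 0.0212), from a fall in SH-SY5Y cells and fitted values near 0 in SH-EP2 cells. FOXO3 gave 0.72 (adjusted p = 0.0110), likewise with a fall in SH-SY5Y cells, and the other FOXO3 probe detected throughout in both lines gave 0.62 (adjusted p = 0.141), while the remaining 2 were at background.

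E2F1, a cell cycle factor with 1 probe, gave 1.59 (adjusted p = 0.0396), with 6.24 and 6.45 in SH-SY5Y control and 5.21 and 5.96 in TRPM7 shRNA cells, and 4.76 and 5.43 against 5.90 and 5.95 in SH-EP2 cells. Neither line's own change passed (adjusted p = 0.210 and 0.125). For TP63, BTG2, TP53I3 and MYC the change had passed in SH-EP2 cells and not in SH-SY5Y cells. TP63 gave 1.56 (adjusted p = 0.0424), and it was detected on 1 of the 4 SH-SY5Y arrays, so that its value in that line is one of background signal. BTG2 gave 1.44 (adjusted p = 0.0285), TP53I3 0.70 (adjusted p = 0.0323) and MYC 0.75 (adjusted p = 0.0482), where the second MYC probe gave 0.30 (adjusted p = 0.798). Of the markers, IFI44 gave 1.51 (adjusted p = 0.000414), with a rise in SH-EP2 cells and a lower value in SH-SY5Y cells that passed in 3 of 17 alternatives. DBH gave 1.19 (adjusted p = 0.0215) and VIM 0.43 (adjusted p = 0.0218), both lower in SH-SY5Y TRPM7 shRNA than in control cells, where the VIM call held in 10 of 17 alternatives, and DBH was undetected in SH-EP2 cells. With median scaling, the differences no longer passed except those of the brighter BID probe and IFI44.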

How the results depend on the processing

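The count of member probes that passed in SH-SY5Y cells (2) became 4 with normexp and without background correction, where BAX and BCL2 ILMN_2246956 joined the BID probes, and 0 without an intensity trend, a fit in which 64 of all probes passed in SH-SY5Y cells against 1003 (102 against 1433 in SH-EP2 cells). For the difference between the lines (2) it was 1 with median scaling and 0 without the trend (23 of all probes against 670), and 3 with normexp and without background correction, where BCL2 ILMN_2246956 passed (adjusted p = 0.0248 and 0.0175), as it did without SH-EP2 TRPM7 shRNA replicate 1. Leaving out each array gave 2 to 3 in SH-SY5Y cells, 0 in SH-EP2 cells, 1 to 2 for the difference and 7 to 9 between control cells, against 9. In SH-EP2 cells the count was 0 under all alternatives run. BAX passed under 5 of 17 alternatives in SH-SY5Y cells. Its lowest adjusted p, 0.00455, came from the crossed replicate block added after seeing the data, described below. With median scaling the adjusted p was 0.0200, and with the replicate block within each line 0.163. Leaving out SH-SY5Y TRPM7 shRNA replicate 2 gave a BAX change of 0.67. The balance in SH-SY5Y cells moved to -0.074 when the probes of a gene were averaged, and leaving out each array gave 0.02 to 0.17 there and -0.18 to 0.03 in SH-EP2 cells. Median scaling moved the median change of the probes detected on all arrays in SH-SY5Y cells from 0.01 to 0.15, and the share of calls that were higher from 38.5% to 66.1% there and from 56.4% to 37.1% for the difference. Of 70 member comparisons called in no fit, 30 had the other sign in at least 1 alternative. Over all probes, each line fitted alone gave 2589 in SH-EP2 cells against 1433, and normexp and no background correction gave 1153 and 1246 for the difference against 670. Without SH-SY5Y control replicate 2 or TRPM7 shRNA replicate 1, 637 and 621 passed in SH-SY5Y cells, and without any one SH-EP2 array 672 to 782 passed in SH-EP2 cells and 400 to 448 for the difference.

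The sources do not say whether the replicate numbers pair the samples. The replicate differences of control and TRPM7 shRNA cells correlated at r = -0.111 in SH-SY5Y and r = -0.00442 in SH-EP2 cells over 14577 probes. These values show no large shared replicate effect and cannot decide whether samples were handled in pairs. With a replicate block the member counts were 2, 0 and 2, and 806, 1142 and 500 of all probes passed in SH-SY5Y cells, in SH-EP2 cells and for the difference. A crossed replicate block in SH-SY5Y cells, added after seeing the data, gave 3 member probes and 1424 of all probes. A block by chip was not run, since the sources used here name no chip.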
